A study of Homo sapiens with 6 samples.

Results

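The genes of the hnRNP H and F family, HNRNPH1, HNRNPH2, HNRNPH3 and HNRNPF, held 141 of the 34781 USP39 binding sites mapped in HEK293T cells (0.405%, 95% Wilson interval 0.344% to 0.478%, counting error only). A site was counted for a gene when its central base lay in the gene's span on the strand that carried most of the gene's sites. HEK293T is an established human embryonic kidney line, here of wild-type genotype. The assay, iCLIP2, locates the RNA positions to which a protein was crosslinked by UV light. It was applied to USP39, a component of the spliceosomal U4/U6.U5 tri-snRNP, immunoprecipitated with an anti-USP39 antibody after irradiation at 254 nm, and it gave 3 libraries from a low and 3 from a high membrane region. The sites come as 1 merged list, so no site or gene has a value per library, a read depth or a replicate error. The list gives no RNA levels, by which the cell line's markers could be examined or the number of sites in a gene set against its abundance. The unirradiated control named in the design was not analysed here.

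Proteins of the family bind runs of guanines in RNA through quasi-RNA recognition motifs (quasi-RRMs) and act in the choice of splice sites and of polyadenylation sites. HNRNPH1 and HNRNPH2 encode closely similar proteins, hnRNP H and hnRNP H', from an autosome and from the X chromosome. HNRNPF encodes the related hnRNP F, and HNRNPH3 encodes a shorter relative with fewer quasi-RRMs. Transcripts of many splicing regulators are themselves alternatively spliced or retain introns, which is one way in which the levels of such proteins are set.

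The bases at USP39 sites could be read where a site lay in a RefSeq window from 250 nt before to 50 nt after a listed transcription start (GRCh38.p14). All 4 genes were matched in that table. It covered 5 sites of HNRNPH1 and 1 of HNRNPH3, and 0 of HNRNPF and HNRNPH2. They are shown because they include the sites that lie at the very start of a listed transcript. Each line gives 29 nt of the gene's strand, 5′ to 3′, with the 5 nt of the site in capitals, and the order follows the direction of transcription.
HNRNPH1, minus strand, chr5:179623669-179623673: aggcgcccgctgGCCATttcgtcttagcc
HNRNPH1, minus strand, chr5:179623663-179623667: ccgctggccattTCGTCttagccacgcag
HNRNPH1, minus strand, chr5:179623578-179623582: gtgggtaccgttTTTGCgaggattgtttg
HNRNPH1, minus strand, chr5:179623567-179623571: ttttgcgaggatTGTTTgtccccatatct
HNRNPH1, minus strand, chr5:179623393-179623397: ccgccgccatttCCTTTcctctacgctgg
HNRNPH3, plus strand, chr10:68332063-68332067: atccccccaagcCAGTAgctgtgctgcgc

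Thymine, which stands for uracil in the RNA, made up 46.7% of the bases in these 6 sites, with from 1 to 4 thymines in a site. In the other 660 sites of protein-coding genes that lay in such windows it made up 46.0%, against 24.7% of the flanking bases. The family's sites thus had a base composition close to that of other sites near gene starts, over only 6 sites, some of which overlap in the 29 nt shown. The motif GGG, the shortest guanine run, was in 1 of the 6 stretches on the gene's strand, and CCC, its match on the other strand, was in 3. Of the other 660 stretches 35.8% held GGG and 28.8% held CCC, and of 22199 stretches of the same length centred on listed starts 42.9% and 42.7% did. TTT was in 5 of the 6 stretches, in 59.2% of the 660 and in 24.2% of the 22199. These are matches of letters and do not locate a bound protein.

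HNRNPH1 held most of the family's sites and HNRNPH2 held 1. HNRNPH1, on chromosome 5 between 179614178 and 179634784, had 106 sites, which is 75.2% of the family's total (95% Wilson interval 67.4% to 81.6%). HNRNPH3, on chromosome 10 between 68331693 and 68343196, had 21, and HNRNPF, on the same chromosome between 43385618 and 43409186, had 13. The only site of HNRNPH2 lay at chrX:101413682-101413686 in a gene that runs from 101408222 to 101414133. All 4 genes thus had a site, as did 23.1% of the 20043 protein-coding genes counted by the same rule, and 3 of the 4 had at least 10 sites, which 4.61% of those genes had. The median gene with a site had 3. HNRNPH1 shared rank 7 by number with SLIT2, which spans 368657 nt, while HNRNPH3 stood at rank 369, HNRNPF at 644 and HNRNPH2 at 3254.

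The genes differ in length, so the numbers were also set per kb of gene span, the whole annotated gene with its introns. The site density was 5.14 per kb in HNRNPH1, with an exact 95% Poisson interval of 4.21 to 6.22 that covers counting error only and takes sites as independent. HNRNPH3 followed with a density of 1.83 per kb (interval 1.13 to 2.79). HNRNPF had 0.552 per kb (interval 0.294 to 0.943), and HNRNPH2 had 0.169 (interval 0.00428 to 0.942). The intervals of HNRNPF and HNRNPH2 overlapped, so the order of these neighbours is not settled by counting alone, while the intervals of HNRNPH1, HNRNPH3 and HNRNPF did not overlap. By density HNRNPH1 was 2.82 times HNRNPH3 and 9.33 times HNRNPF. The median density was 0.127 per kb over the 4628 protein-coding genes with a site and 0.804 over the 923 with at least 10, so HNRNPF lay below the second of these medians and HNRNPH3 above it. The interval of HNRNPF included 0.804, so its place below that median is not settled by counting. How RNA abundance moves with these densities was not tested.

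**Figure D1:**
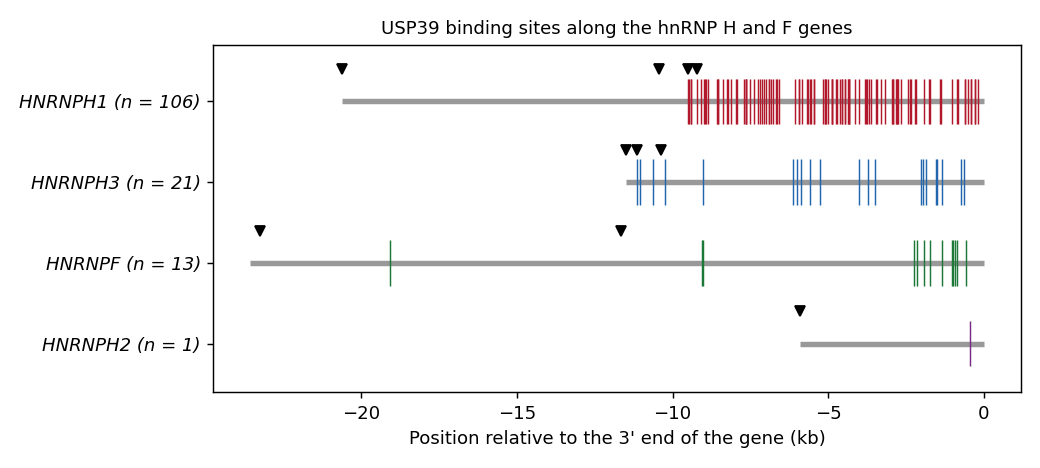
Positions of the 141 sites in the 4 genes, drawn to scale as distance in kb from the 3′ end of each gene (0), with transcription from left to right. Grey bars are gene spans, coloured ticks are sites and black triangles are listed transcription starts; HNRNPH1 is filled from the third start to its 3′ end and empty before it, and 10 of the 13 sites of HNRNPF lie near its 3′ end.

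The sites of HNRNPH1 filled the 3′ part of the annotated gene without a long break and left the 5′ part empty. The list of starts gives 4 for this gene. Between the start at 179634784 and the third, at 179623671, lie 11113 nt with 0 of the 106 sites. A count of 0 is taken to allow up to 3 counts, here a share of up to 2.83%, with sites taken as independent. Of the 923 protein-coding genes with at least 10 sites, 32.1% had 0 sites in the first 10% of the gene, and 7.26% had 0 in the 5 of 10 equal parts nearest the 5′ end, as HNRNPH1 had. The site nearest the 5′ end was centred on the start base at 179623671 itself, and the last one lay 174 nt before the 3′ end. The 270 nt between the third and the fourth start held 4 sites, and the remaining 102 lay downstream of the fourth, at 179623401, the first of them 6 nt downstream of that start.

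Counted in steps of 1 kb from the 3′ end upward, HNRNPH1 had 10, 6, 13, 10, 15, 14, 8, 13 and 11 sites in its first 9 steps, and 6 more in the step that holds the third start. No step of the 9 was empty, and the median was 11. The most crowded 1000 nt, at chr5:179618309-179619308, held 19 sites, or 17.9% of the total. Among the 419 protein-coding genes with at least 20 sites, whose median for the densest 1000 nt was 9.0, this was rank 3, shared with DDX17, DDX5, RCC1 and RHOA. It lay in the middle of the sited stretch and not at either end.

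**Figure D2:**
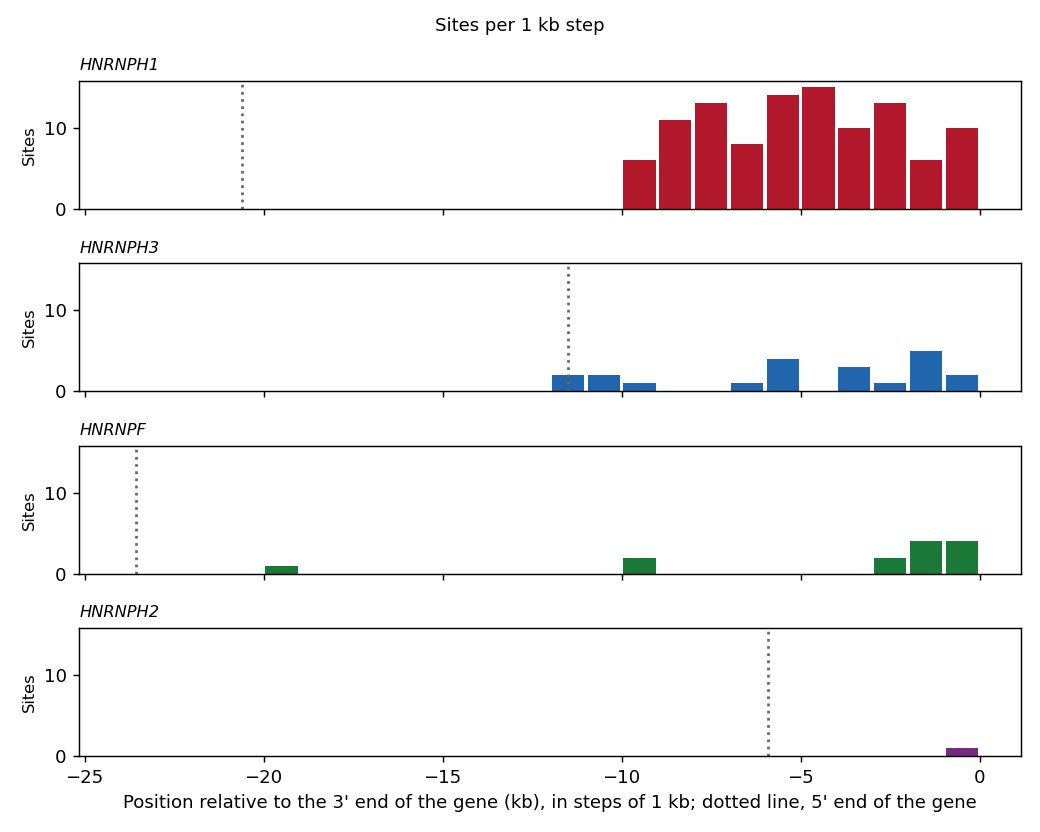
Number of sites (vertical axis, from 0) in steps of 1 kb counted from the 3′ end (0 on the horizontal axis, kb) in each gene; dotted lines mark the 5′ end of the gene, and the step that crosses it is shorter than 1 kb. HNRNPH1 has between 6 and 15 sites in each of the 9 steps nearest its 3′ end, while the highest step of HNRNPH3 has 5 and that of HNRNPF has 4.

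Because its sites began at an internal start, the density of HNRNPH1 depended on the stretch over which it was taken. Over the 9494 nt from the third start to the 3′ end it was 11.2 sites per kb, against 5.14 over the whole span. This measure was chosen after the positions were seen. On it HNRNPH1 had rank 1 of the 334 genes with at least 20 sites for which a listed start upstream of the first site was known (median 1.27 per kb), just before IRS4, an insulin receptor substrate, with 10.954. RPS2 has no value on this measure, and its density over the whole span, 13.7 per kb, is above that of HNRNPH1. Between the first and the last site the density was 11.4 per kb, rank 3 of 419 genes after RPS2 and RPL10, both ribosomal protein genes, while over the whole span HNRNPH1 had rank 52 of the 419. From the nearest listed start upstream of the first site, HNRNPH3 had 1.89 per kb and HNRNPF 0.559, and HNRNPH2 kept 0.169. In HNRNPF that start was set by 1 lone site, and the other 12 sites lay in the 11660 nt after its second listed start. The density of HNRNPH1 was then 5.92 times that of HNRNPH3 and 19.96 times that of HNRNPF. The value of HNRNPF, and with it the second ratio, depends on that lone site.

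HNRNPH3 carried its sites along nearly the whole gene. They ran from 372 nt after the 5′ end to 624 nt before the 3′ end, 91.3% of the span, against 45.2% in HNRNPH1 and a median of 89.8% in the genes with at least 10 sites. The 10 equal parts of the gene, from 5′ to 3′, held 3, 1, 1, 0, 3, 2, 3, 0, 6 and 2 sites. The longest empty interval, 2893 nt, lay between the centres at 68334170 and 68337063, and the densest 1000 nt, with 6 sites, began at 68341174. The first site of HNRNPH3 was centred 1 nt downstream of its second listed start, at 68332064, and the 371 nt between the first and second starts had 0 sites. HNRNPH1 and HNRNPH3, 2 of the 4 members, thus had a site centred within 10 nt of a listed start, as had 16.8% of the 775 genes with at least 10 sites and a listed start and 5.01% of 3891 genes with any site. HNRNPF and HNRNPH2 had none there, their nearest sites lying 2594 nt and 5462 nt downstream of a listed start. Of the 25 other hnRNP genes, not all of which have a listed start, 3 had a site within 10 nt of one. These shares are not matched for the number of sites or of listed starts in a gene.

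HNRNPF had 10 of its 13 sites in the last 10% of the gene (76.9%, 95% Wilson interval 49.7% to 91.8%). All 10 lay between 2236 nt and 577 nt before the 3′ end, and 6 of them were in the 1000 nt from 43386195. The other 3 were a pair centred at 43394683 and 43394636 and a lone site at 43404699, so that 18 of the 20 steps of 1 kb from 3 kb to 23 kb before the 3′ end were empty. The last 10% held 15.1% of the sites in HNRNPH1 (interval 9.51% to 23.1%) and 9.52% in HNRNPH3 (interval 2.65% to 28.9%), and the interval of HNRNPF overlapped neither. The median over the 923 genes with at least 10 sites was 18.2%. The last 10% is not the same length in each gene, since HNRNPF spans 23569 nt and HNRNPH3 11504 nt. The last 20% of HNRNPH3 held 38.1% of its sites. The last 1000 nt held 30.8% of the sites in HNRNPF, 9.43% in HNRNPH1 and 9.52% in HNRNPH3. No intervals were taken over equal lengths, so the separation of HNRNPF holds for the last 10% only. The single site of HNRNPH2 lay 449 nt before the 3′ end, also in the last 10%. Exons are not part of the gene table, so these positions are not assigned to exons, introns or untranslated regions.

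Neighbouring sites were much closer together in HNRNPH1 than in its paralogs. The median distance between the centres of neighbouring sites was 67.0 nt in HNRNPH1 over 105 distances, 285.5 nt in HNRNPH3 over 20 and 208.5 nt in HNRNPF over 12. The largest distance was 528 nt in HNRNPH1, compared with 10016 nt in HNRNPF. Among the 419 genes with at least 20 sites, counted from the shortest, HNRNPH1 had rank 45 by its median distance and rank 13 by its largest distance. The medians of these genes were 157 nt and 5399 nt. These distances are not corrected for the number of sites in a gene.

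**Figure D3:**
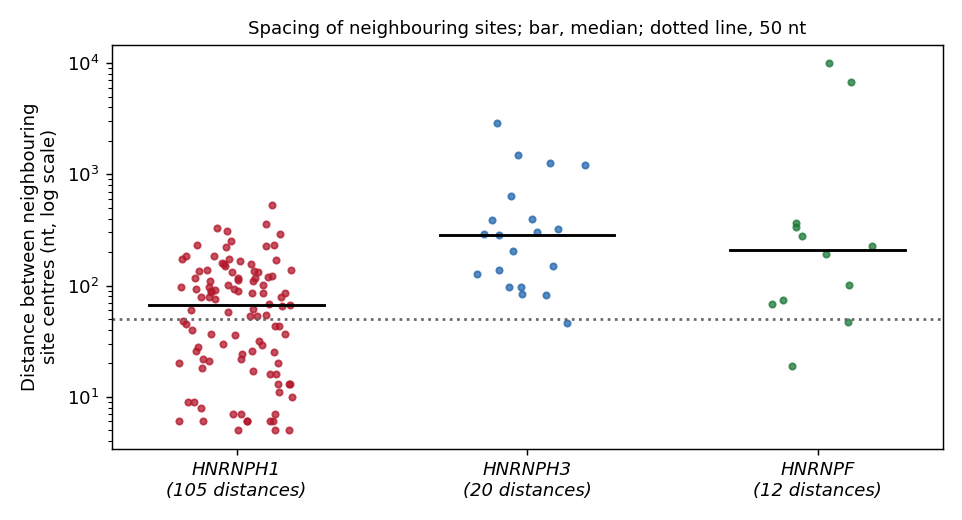
Distance between the centres of neighbouring sites (nt, log scale) in HNRNPH1, HNRNPH3 and HNRNPF; each point is 1 pair of neighbours, the bar is the median and the dotted line is 50 nt. HNRNPH1 has 45 of 105 distances at or under 50 nt and none above 528 nt, while HNRNPH3 has 1 of 20 and HNRNPF 2 of 12 at or under 50 nt.

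With a cluster taken as a run of at least 2 sites whose neighbouring centres lie within 50 nt, HNRNPH1 had 32 clusters, HNRNPF 2, HNRNPH3 1 and HNRNPH2 0. These counts depend on the distance and the size asked for: HNRNPH1 had 3 clusters at 5 nt, 20 at 20 nt and 9 with at least 3 sites at 50 nt, and at 100 nt HNRNPH3 had 4 and HNRNPF 2, which turns their order. Of the HNRNPH1 clusters 23 had 2 sites, 5 had 3 and 4 had 4. A cluster was found in 3 of the 4 genes, in 33.4% of the genes with a site and in 91.5% of those with at least 10 sites. In HNRNPH1 77 of the 106 sites (72.6%, Wilson interval 63.5% to 80.2%) had a neighbour within 50 nt. In HNRNPH3 2 of 21 had (9.52%, interval 2.65% to 28.9%), and in HNRNPF 4 of 13 (30.8%, interval 12.7% to 57.6%). These intervals take sites as independent. A pair of neighbours counts both of its sites, so the intervals are likely too narrow. The median of the 923 genes with at least 10 sites was 37.9%. HNRNPH1 thus lay above that median and HNRNPH3 below it. By this share HNRNPH1 had rank 39 of the 419 genes with at least 20 sites. Neither the shares nor the numbers of clusters are corrected for site density, and sites that lie denser have closer neighbours under any arrangement. Between the first and the last site the density was 11.4 per kb in HNRNPH1 and 2.00 in HNRNPH3. Whether the sites of HNRNPH1 cluster beyond their density was not tested. Of the other hnRNP genes counted below, PCBP2 had 75.5%, HNRNPA2B1 had 69.5%, and the rest with a site had lower shares.

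The clusters of HNRNPH1 with 4 sites each were spread over its sited stretch. They lay at chr5:179616935-179616998, chr5:179618493-179618533, chr5:179619255-179619331 and chr5:179621814-179621876, and the shortest of them was 41 nt wide. A pair of clusters, each of 2 sites, lay closest to the third start, at chr5:179623663-179623673 and chr5:179623567-179623582, and their bases are among the sequences given above. Only 3 of the 105 distances were 5 nt, that is, between sites that abut. The cluster of HNRNPH3 lay at chr10:68341643-68341693, and those of HNRNPF at chr10:43386613-43386636 and chr10:43394634-43394685. With each cluster counted as 1 site, HNRNPH1 had 61, HNRNPH3 20, HNRNPF 11 and HNRNPH2 1. The order of the genes was the same, and HNRNPH1 then exceeded HNRNPH3 by 3.05 times in number instead of 5.05 times.

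The strand of the sites was that of the listed transcripts in all 4 genes, as in 94.2% of 3891 protein-coding genes with a site and a listed strand. None of the 4 had a site on its other strand, as was the case for 97.5% of genes with a site. Strand bears on HNRNPH1 and HNRNPH3 because other genes overlap them. The whole of HNRNPH1 lies in LOC128966623, a lncRNA gene listed on the plus strand, which had 2 plus-strand sites, both outside HNRNPH1. At HNRNPH3, 3 sites lay within PBLD and 8 within RUFY2, both listed on the minus strand and without a minus-strand site. HNRNPH2 lies in the read-through locus RPL36A-HNRNPH2, on the same strand, which had 7 further plus-strand sites outside HNRNPH2 and 11 sites on the minus strand. The site of HNRNPH2 cannot be told apart from a site of that longer transcript. Within 5 kb of either end of the 4 genes there were 0 further sites on the gene's strand, and 1 on the other strand, beside HNRNPH2.

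Family members and their copies resemble each other in sequence, and the treatment of reads that match several copies is not stated in the labels or the notes. The gene table holds 5 pseudogenes named after the family, HNRNPH1P1, HNRNPH1P2, HNRNPH1P3, HNRNPH3P1 and HNRNPFP1, and 0 of the 5 had a site. The division of sites between HNRNPH1 and HNRNPH2 is therefore uncertain where their transcripts are alike.

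Among the other hnRNP genes, 21 of 25 had a site, as did 23.1% of all protein-coding genes. The 25 genes held 791 sites in all, with a median of 24.0 per gene. HNRNPC, whose protein binds uridine tracts, had the most, 108. HNRNPU, which encodes a large nuclear RNA- and chromatin-binding protein, had 95 by this rule, HNRNPA2B1, a core hnRNP gene, had 82, and PTBP1, which encodes the polypyrimidine tract-binding protein, had 60. The 4 without a site were HNRNPA1L2, HNRNPCL1, HNRNPLL and PTBP3. Per kb of span HNRNPH1, at 5.14, had rank 4 among the 34 genes of the family and both lists, after HNRNPA1 with 7.70, HNRNPA2B1 with 7.58 and HNRNPU with 6.67, while HNRNPH3 had rank 12, HNRNPF 20 and HNRNPH2 25. HNRNPH1 had the most crowded 1000 nt of these genes, with 19 sites against 16 in PTBP1 and 14 each in HNRNPU and HNRNPA2B1. Its sited stretch, 45.2% of the span, was short beside those of HNRNPC, HNRNPU, HNRNPA2B1 and PTBP1, which took up from 94.5% to 99.3%. Shorter ones were found in HNRNPA0 (26.3%, 13 sites), PTBP2 (25.3%, 4 sites), RBM12B (24.4%, 2 sites) and GRSF1 (42.0%, 7 sites). HNRNPH2 had a single site.

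Of the 5 genes of other proteins with related quasi-RRMs, 3 had a site, against 23.1% of all protein-coding genes. RBM12 had 12 sites, or 0.751 per kb, GRSF1, which encodes a guanine-rich RNA-binding protein of mitochondria, had 7, and RBM12B had 2. The epithelial splicing regulators ESRP1 and ESRP2 had 0. These 5 genes had a median of 0.156 sites per kb, against 1.19 in the hnRNP H and F genes and 1.77 in the other hnRNP genes. Genes without a site are included in these medians.

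**Figure D4:**
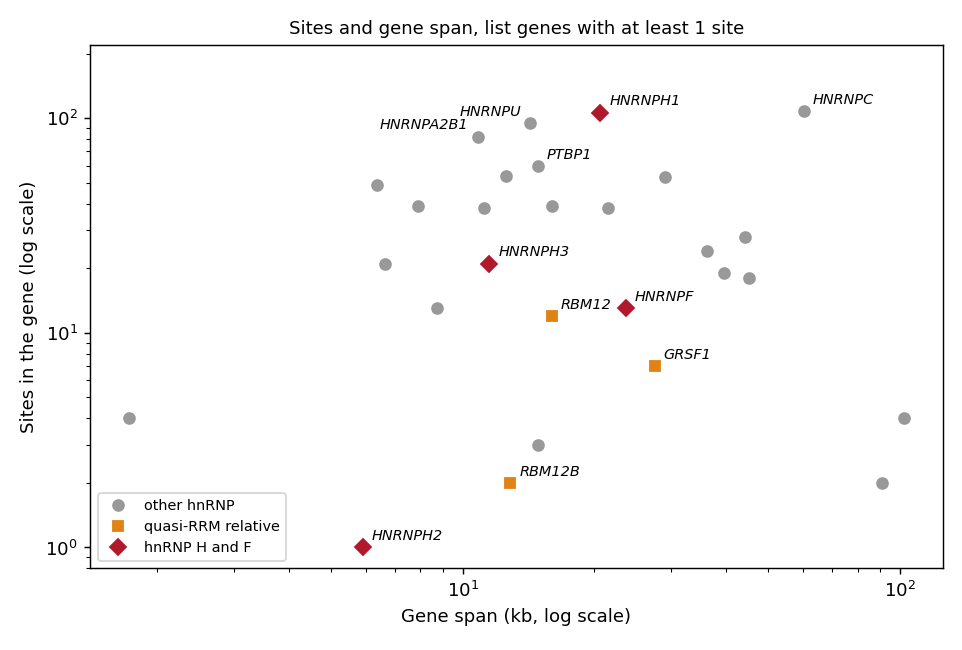
Number of sites (log scale) against gene span in kb (log scale) for the genes of the family (red diamonds), the other hnRNP genes (grey circles) and the quasi-RRM relatives (orange squares) that had at least 1 site. HNRNPH1 with 106 sites lies level with HNRNPC at 108 over a shorter span, and HNRNPH2 with 1 site is the lowest of the genes shown.

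In its distribution over 10 equal parts of the gene, HNRNPH1 was most like IPO7, a nuclear import receptor, RABL6, a RAB-like GTPase, and TAF1D, a subunit of an RNA polymerase I initiation factor. Likeness was the sum of absolute differences between the shares of sites in the 10 parts, over 418 genes with at least 20 sites in the merged list. It was 0.281 for IPO7, 0.329 for RABL6 and 0.334 for TAF1D, and the median was 1.06. In HNRNPH1 the 5 parts nearest the 3′ end held 14, 23, 30, 23 and 16 sites and the other 5 held 0. In IPO7, RABL6 and TAF1D the 5′ parts held from 7.69% to 12.5% of the sites. Of the 3, TAF1D also had a site within 10 nt of a listed start and, with 3.54 sites per kb of span, the density closest to that of HNRNPH1.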

How the data were processed

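USP39 iCLIP2 was applied to 6 HEK293T libraries, 3 from a low and 3 from a high membrane region, after 254 nm UV light and a first PCR of 6 cycles, per the labels' protocols. The deposited file is a BED list of 34781 sites, each 5 nt wide, filed under the low region, replicate 1; the score the authors deposited is 0 throughout and was not used. Per the submitters' processing notes, tools included STAR 2.7.3a, UMI-tools 1.1.2 and bedtools 2.29.2, with GRCh38.p12. Which program called the sites, with which filters and from which libraries, is not given in the sources used here. Coordinates count the first base as 1. Gene spans, starts and sequences came from RefSeq tables (GRCh38.p14), without exons, so build patches differ. Sites were counted for every gene span that held their central base, on the strand with most of its sites; a site can count for several genes. No test was run, as there are no replicates. Wilson and Poisson intervals are at 95%; counts of 0 allow 3 counts. Members, lists and rules for named genes (members, overlapping genes, the 4 other hnRNP genes with most sites and those with none, quasi-RRM relatives, the 3 genes most like HNRNPH1 in profile) were chosen with earlier results of these data known; other genes were named after their values were seen, as were motifs. A further gene of the hnRNP list was left out of the 25 counted and is not reported here. The work used scipy 1.17.1, pandas 2.3.3, numpy 2.4.6 and Python 3.11.15, with plots from matplotlib 3.10.9. The counting of sites and clusters was tested on simulated data. Positions were checked there only to lie within the gene, which does not test their direction.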

Additional observations from a re-analysis of the deposited data

How the results depend on the processing

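No paired analysis was possible because the merged list has no value per library; for the same reason no replicate could be left out, and depth limits are unknown. Density per kb of coding sequence was not run, since no protein sequences were used here. Of 86 alternative values, 59 stayed close to the reported ones and 27 moved. The order of the 4 genes by density was compared only with sites joined within 50 nt and with density from a listed start. It was the same in both. Many of the 59 could not move, as no member had a site on its other strand and HNRNPH2 had a single site. Site numbers and densities over the same span also move together, so the tally is not a measure of robustness. Counting only sites in no other gene's span, on either strand, left 0 sites (density 0) in HNRNPH1 and HNRNPH2 and 10 (0.869 per kb) in HNRNPH3, since other genes overlap them. HNRNPF kept 13 sites (0.552 per kb), so HNRNPH3 and HNRNPF then came before HNRNPH1 by density. Joining sites within 50 nt gave HNRNPH1 61 sites and 2.96 per kb. Its density was 11.4 per kb between the first and last site and 11.2 from the third listed start, an alternative chosen after seeing the data. HNRNPH1 had 3 clusters when joined within 5 nt, 20 within 20 nt and 9 when at least 3 sites were required; HNRNPF had 0, 1 and 0, and HNRNPH3 had 0 under each and 4 within 100 nt. The share in the last 20% of the gene was 36.8% in HNRNPH1 and 38.1% in HNRNPH3, and in the last 1000 nt it was 9.43% in HNRNPH1 and 30.8% in HNRNPF. The densest 500 nt and 2000 nt of HNRNPH1 held 11 and 31 sites, and the densest 2000 nt of HNRNPF held 10.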
